A study of Drosophila melanogaster with 2 samples.

Results

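The cohesin and cohesin loader genes are 9 protein-coding genes of Drosophila melanogaster, Mau2, Nipped-B, SMC1, SMC3, vtd, SA, wapl, pds5 and san, out of 13968 protein-coding genes annotated on the dm6 assembly. They were listed by name, and the list was chosen by the promoter summits and peak signals of these same lists, with those of Mau2 and pds5 known, so their counts and signals are described here and not tested. The values come from chromatin immunoprecipitation followed by sequencing (ChIP-seq) of CG31441, a predicted zinc-finger protein carried on a transgene as a fusion with eGFP and precipitated with an antibody to GFP. There was 1 group of 2 biological replicates, whole embryos of 0 to 16 h, in which all tissues and stages of that span are mixed. The driver of the transgene and any treatment are not given in the labels, and no control library was analysed here. The data are 8 deposited peak lists, 4 made from both replicates and 2 for each replicate, and read depth is unknown. The ranked lists hold peaks before any threshold, the thresholded ones those that passed the authors' limit on the irreproducible discovery rate (IDR), an estimate of how poorly a peak of a given rank repeats between lists. The conservative list was the main one, and the ranked list that holds all of its peaks is called that of true replicates. A peak was counted at a promoter when its summit, the position of its highest signal, lay within 500 bp of an annotated transcription start site (TSS).

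Cohesin is a ring of the SMC1 and SMC3 ATPases closed by the kleisin subunit vtd (Rad21), to which SA (stromalin) is bound, and it holds sister chromatids together and shapes chromatin loops. The Nipped-B and Mau2 proteins (the relatives of yeast Scc2 and Scc4) load the ring onto chromatin, wapl with pds5 takes it off, and the acetyltransferase san is needed to keep sister chromatids together. In flies Nipped-B is also known for helping distant enhancers act on genes such as cut, and early embryos with their rapid nuclear divisions depend on cohesin.

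The stretches of 250 bases directly upstream of the TSS are shown for 2 genes that carried a promoter summit in the conservative list of the series, Mau2 and the SMC5/6 complex gene SMC6, and for 2 members that did not, SMC1 and vtd. They were read on the strand of the gene from the RefSeq genome, assembly dm6 (Release 6), and capitals mark each CGATA, the core of the site read by the insulator protein BEAF-32, or its reverse complement TATCG. The last base of each line is the base before the TSS. The Mau2 stretch is chr3R:15208954-15209203 on the plus strand, that of SMC6 chr3R:24193424-24193673 on the minus strand, that of SMC1 chr3R:24058037-24058286 on the plus strand and that of vtd chr3L:27136275-27136524 on the plus strand.
Mau2: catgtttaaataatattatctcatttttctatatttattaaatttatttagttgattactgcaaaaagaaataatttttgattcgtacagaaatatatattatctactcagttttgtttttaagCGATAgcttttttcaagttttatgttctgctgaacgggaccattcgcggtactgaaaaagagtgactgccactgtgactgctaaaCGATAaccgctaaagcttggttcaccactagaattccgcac
SMC6: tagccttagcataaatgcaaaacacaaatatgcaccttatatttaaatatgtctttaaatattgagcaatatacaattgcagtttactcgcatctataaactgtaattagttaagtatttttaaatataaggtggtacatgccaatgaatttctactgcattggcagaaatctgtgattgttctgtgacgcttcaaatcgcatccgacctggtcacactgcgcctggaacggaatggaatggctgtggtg
SMC1: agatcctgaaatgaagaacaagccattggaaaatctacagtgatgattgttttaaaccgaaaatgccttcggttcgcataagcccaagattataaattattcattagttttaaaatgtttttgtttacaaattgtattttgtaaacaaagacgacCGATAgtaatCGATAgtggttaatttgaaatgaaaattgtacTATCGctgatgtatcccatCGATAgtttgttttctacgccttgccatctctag
vtd: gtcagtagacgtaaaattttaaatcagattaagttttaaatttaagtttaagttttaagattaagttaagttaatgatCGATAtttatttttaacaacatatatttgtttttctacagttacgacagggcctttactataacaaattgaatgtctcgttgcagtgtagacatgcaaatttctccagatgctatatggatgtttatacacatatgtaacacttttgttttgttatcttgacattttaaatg
The share of G and C was 31.6% in the Mau2 stretch, 36.4% in SMC6, 32.8% in SMC1 and 26.4% in vtd, against a median of 38.4% over all 19630 promoter stretches of this length. CGATA was present 2 times upstream of Mau2, 4 times upstream of SMC1 and 1 time upstream of vtd, and SMC6 had no match. The motif was thus found with and without a promoter summit in the conservative list. At vtd the ranked list of replicate 1 alone placed a summit 126 bp upstream, inside the printed stretch.

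In the conservative list, 2 of the 9 members had a promoter summit (22.2%), Mau2 and pds5, against 18.2% of all protein-coding genes. The same 2 members were found in the less strict list of the series, where the background was 21.0%, and in the ranked list of true replicates before any threshold, where it was 35.7% against the same 22.2% of members. The second ranked list made from both replicates held 4 members, Mau2, wapl, pds5 and san (44.4%), against 37.2% of genes. The share of members was thus near that of all genes in 3 of these lists and below it in the ranked list of true replicates. Among 9 members a single gene moves such a share, so no excess or lack is read from it. The large values were those of 2 genes.

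The replicates were next compared list by list. In the thresholded lists, 2 members had a promoter summit in replicate 1 (Mau2 and pds5), against 17.3% of all genes, and 3 in replicate 2 (Mau2, SA and pds5), against 18.4% of all genes. In the ranked lists, 4 members had one in replicate 1 (Mau2, vtd, pds5 and san; background 35.1%) and 5 in replicate 2 (Mau2, SMC3, SA, wapl and pds5; background 43.1%). Only Mau2 and pds5 were shared between the replicates, both in the thresholded lists (2 of 9 members, against 13.0% of all genes) and in the ranked lists (2 of 9, against 30.9%). In the thresholded lists they made up 100% of the members with a promoter summit in replicate 1 and 66.7% of those in replicate 2, against 75.3% in replicate 1 and 70.5% in replicate 2 over all protein-coding genes. In the ranked lists they made up 50% of the members of replicate 1 and 40% of those of replicate 2, against 88.1% in replicate 1 and 71.6% in replicate 2 over all protein-coding genes. With 2 to 5 members a list, these shares turn on single genes. In the replicates' own lists, each of the other members with a promoter summit had it in 1 replicate alone.

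**Figure D1:**
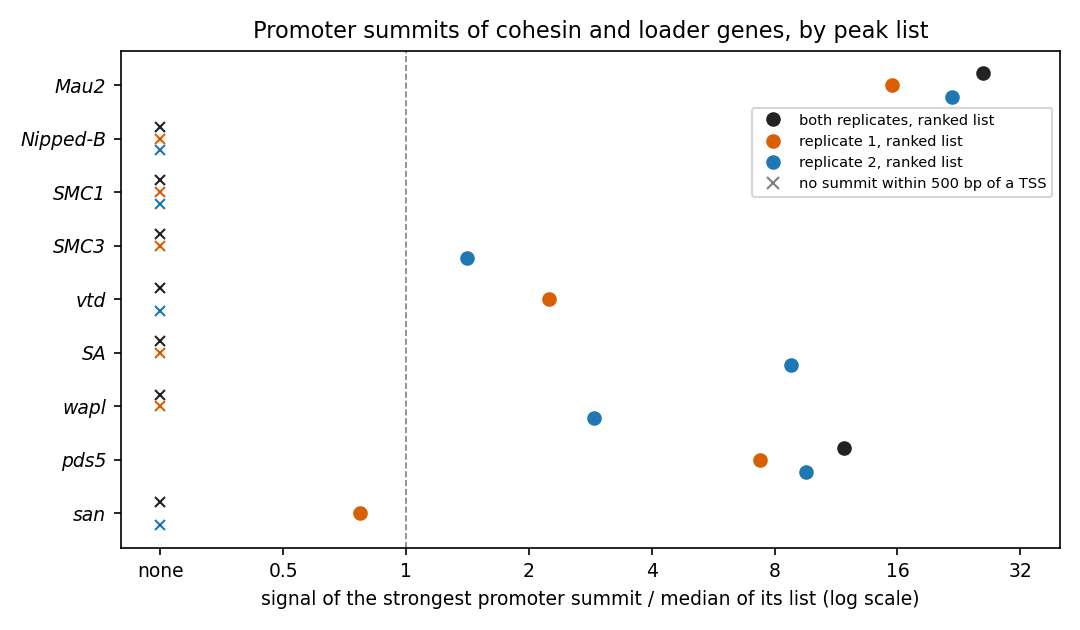
Signal of the strongest promoter summit of each member divided by the median signal of the same ranked list (log axis), for the list of both replicates and for each replicate, with crosses where no summit lay within 500 bp of a TSS. Mau2 reached 26.0, 15.5 and 21.8 times the list median and pds5 11.8, 7.37 and 9.57 times, and of the other members only SA in replicate 2, at 8.77 times, came near them.

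Mau2 (FBgn0038300, chromosome arm 3R, 15209204 to 15211347, plus strand), the partner of Nipped-B in the loader, had the highest signal of all 6501 conservative peaks. The authors' signal at its summit was 950.5, against a list median of 180.4, and was 1.04 times that of the next peak, 914. The signal was 4.73 times the median of the 2361 conservative promoter peaks. The summit lay 93 bp upstream of the TSS.

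Both replicates ranked the Mau2 summit at the top or next to it. The signal was 515 in replicate 1, rank 2 of 4964 thresholded peaks, and 447 in replicate 2, rank 1 of 5484 thresholded peaks. The mean was 481 ± 48.0 (SD, n = 2), and replicate 1 was 1.15 times replicate 2. Set against the medians of the thresholded lists, which were 129.8 in replicate 1 and 88.2 in replicate 2, the order turned round, with 3.97 times the median in replicate 1 and 5.07 times in replicate 2. The summit was placed 117 bp upstream of the TSS in replicate 1 and 86 bp upstream in replicate 2, a shift of 31 bp.

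The Mau2 peak held a weaker summit inside the gene. In the conservative list this second summit lay 150 bp downstream of the TSS with a signal of 358 (rank 871), so that the upstream summit was 2.66 times as high. In replicate 1 the second summit lay 89 bp downstream with a signal of 348 (rank 60), and in replicate 2 it lay 121 bp downstream with a signal of 172 (rank 677). The pair of summits was 206 bp apart in replicate 1, 207 bp apart in replicate 2 and 243 bp apart in the conservative list. The peak caller is not known, and the part it plays in this spacing was not tested. The relative height of the pair did not repeat. The upstream summit was 1.48 times the downstream one in replicate 1 and 2.60 times in replicate 2. In the deposited signals the second summit averaged 260.1 ± 125 (SD, n = 2), a wider relative spread than at the first. Set against the medians of the thresholded lists, the second summit was 2.68 times in replicate 1 and 1.95 times in replicate 2. The first was 3.97 and 5.07 times, so the much wider spread was seen in the undivided signals alone. The second summit fell in a coding exon in the conservative list and in replicate 2. In replicate 1 it fell in an untranslated exon, since the first coding base is 96 bp after the TSS.

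The Mau2 peak was also among the widest. It spanned 15208419 to 15209607 on 3R, 1189 bp, which was wider than 99.7% of the conservative promoter peaks, whose median width was 448 bp. Of the 100 promoter peaks with the highest signal, 5 were wider, and their median was 488 bp. The interval reached 785 bp upstream and 403 bp downstream of the Mau2 TSS, and so covered the whole 441 bp between Mau2 and the serpin gene Spn88Eb, which runs the other way. The upstream summit lay 349 bp from the Spn88Eb TSS and counts as a promoter summit of both genes. Which of the 2 genes, if either, is tied to the signal cannot be told apart from summit positions.

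**Figure D2:**
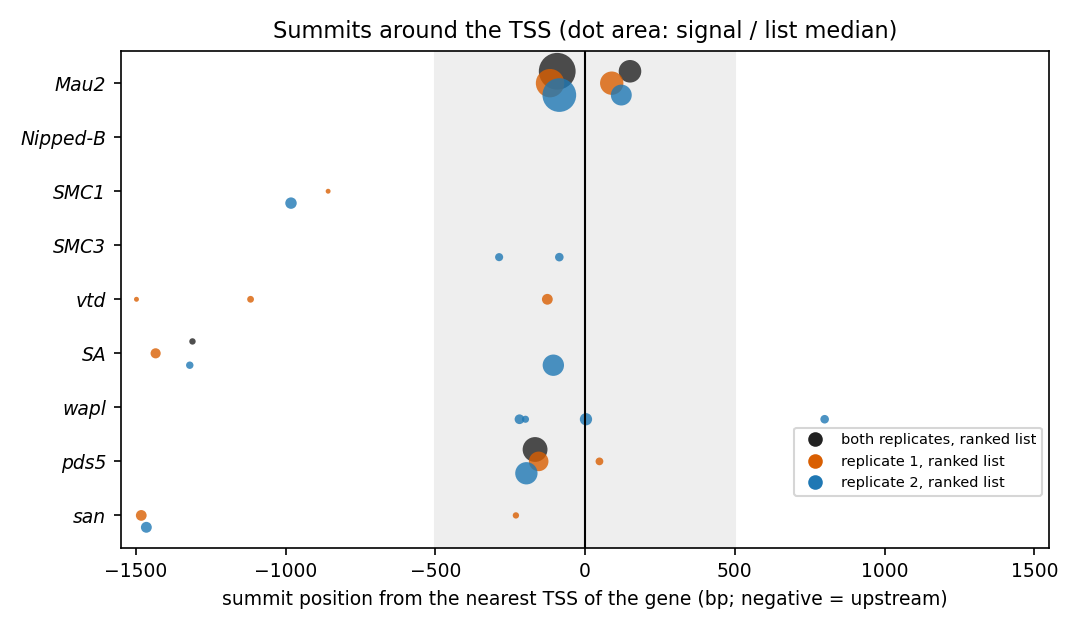
Position of each summit relative to the nearest TSS of the member (bp, negative values upstream) in the ranked list of both replicates and in the ranked list of each replicate, with dot area proportional to signal over the list median and the 500 bp window in grey. Inside the window the Mau2 and pds5 summits line up in all 3 lists. They lie 93, 117 and 86 bp upstream at Mau2 and 167, 155 and 196 bp upstream at pds5. The other members have dots there in 1 replicate alone, the largest that of SA in replicate 2, or none. Outside the window, SA has summits in all 3 lists, at 1311, 1434 and 1320 bp upstream. SMC1 and san have them there in both replicates, and vtd and wapl in 1 replicate alone.

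The pds5 gene (FBgn0260012, 2R, 12027985 to 12033725, plus strand) encodes the cohesin-associated protein that acts with wapl in release. Its conservative summit lay 167 bp upstream of the TSS with a signal of 433, rank 467 of 6501, so that 7.17% of the peaks were higher. The signal was 245 in replicate 1 (rank 490) and 196 in replicate 2 (rank 444), with a mean of 221 ± 34.6 (SD, n = 2). Of the thresholded peaks, 9.85% were higher in replicate 1 and 8.08% in replicate 2, so pds5 stood at a similar place in all 3 lists. The summit was placed within 41 bp in the replicates, 155 bp upstream in replicate 1 and 196 bp upstream in replicate 2.

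The pds5 promoter is shared as well. Only 277 bp separate pds5 from the metallophosphoesterase gene Mppe on the other strand, and the summit lay 111 bp from the Mppe TSS, nearer than to that of pds5. The peak was 417 bp wide, close to the promoter median. The conservative summit fell on a soft-masked base, one marked as repeat or low-complexity sequence, whereas the summits of both replicates fell on unmasked bases. A further conservative peak with a signal of 224 lay past the 3′ end of pds5, 7199 bp after its TSS and over 500 bp from any coding TSS. Replicate 1 had a weaker extra summit 48 bp inside pds5 in its ranked list, with a signal of 38.7.

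**Figure D3:**
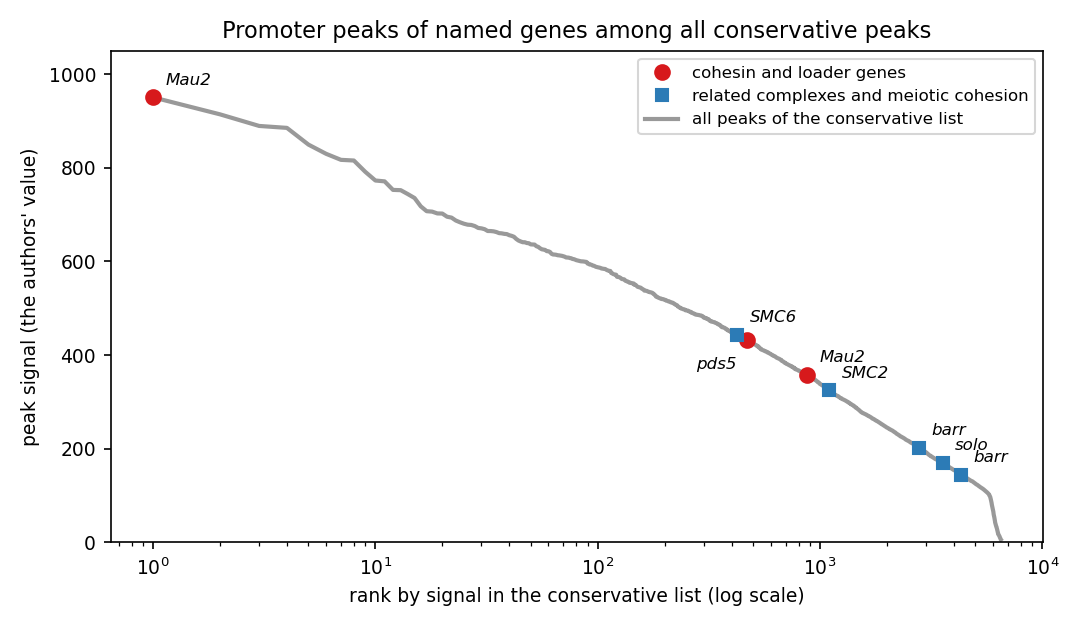
Signal of the conservative peaks against their rank by signal (log axis), with the promoter summits of cohesin and loader genes as circles and those of related complexes and meiotic cohesion genes as squares. Mau2 is at rank 1 with a second summit at rank 871, pds5 is at rank 467, and SMC6, at rank 423, is its nearest neighbour among the named genes.

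At the position of its conservative summit, base composition set Mau2 apart from other strong peaks. In the 101 bp around its upstream summit 40.6% of the bases were G or C, more than at 76.0% of the conservative promoter peaks, and only 4 of the 100 strongest promoter peaks had a higher share. The median was 24.8% in those 100 peaks and 30.7% over all promoter peaks. The Mau2 share was 34.7% in the window centred 20 bp further upstream. The replicates placed this summit 31 bp apart, so the value depends on the call. An AT-rich stretch was present but lay off the summit, with 15.8% G and C in the window centred 100 bp further upstream, where the median of all promoter peaks was 34.7%. The second Mau2 summit, inside the gene, had 66.3% G and C, more than at 99.9% of promoter peaks. At pds5 the lowest share stood at the summit itself, 24.8%, and 24.6% of promoter peaks had a lower one.

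**Figure D4:**
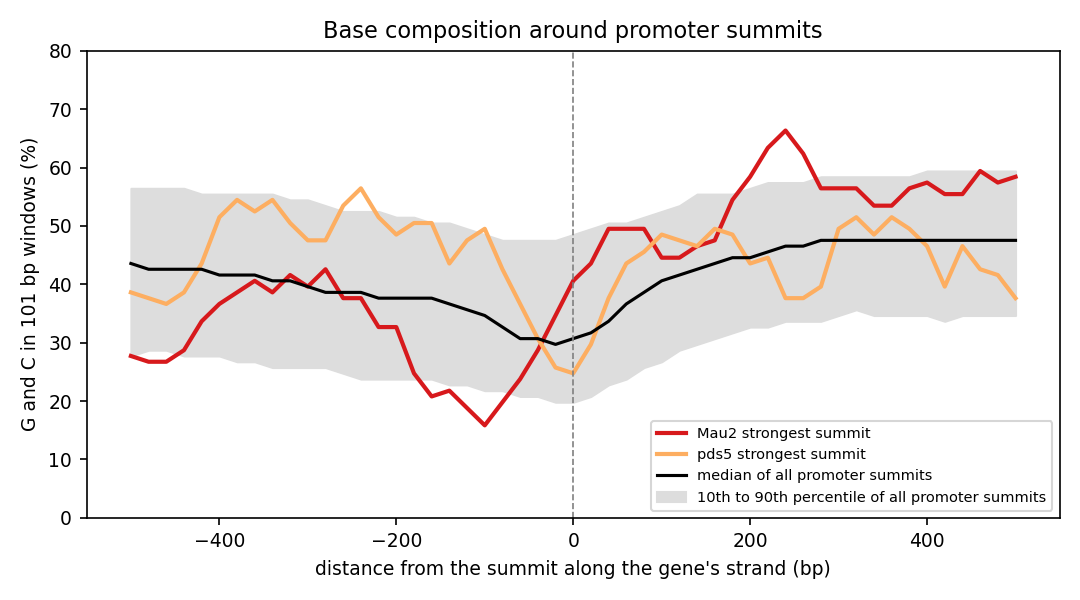
Share of G and C in windows of 101 bp against the distance from the summit along the strand of the gene, for the strongest summit of Mau2 and of pds5, with the median and the 10th to 90th percentiles of all conservative promoter summits. The lowest point of Mau2, 15.8%, is 100 bp upstream of its summit, whereas pds5 and the median of all promoter summits are lowest at the summit or within 20 bp of it.

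The 7 sequence motifs searched on both strands within 50 bp of the summits were TATCGATA (the site of DREF), CGATA (read by BEAF-32), GAGAG (read by GAGA factor), GGTCACAC (known as motif 1), CAGCTG (an E-box), CACGTG (another E-box) and TATAAA (the TATA box). CGATA is part of TATCGATA, so a match to the longer word is also a match to the shorter. Both Mau2 summits had CGATA as their only match, and pds5 had TATAAA as its only match. CGATA was found at 18.4% of conservative promoter peaks and in 12.7% of windows centred 400 bp away, and TATAAA at 27.5% of peaks and in 10.7% of those windows. TATCGATA was found at 2.88% of promoter peaks, GAGAG at 8.98%, GGTCACAC at 1.52%, CAGCTG at 4.28% and CACGTG at 0.805%. CGATA was thus an ordinary match among promoter peaks. It was less common at the strongest ones, 11.0% of the first 100 by rank among promoter peaks, against 21.5% of those ranked 1001 to 2361. TATAAA went the other way, with 38% and 22.4%. The median share of G and C was 24.8% in the first 100 and 33.7% in the later group. Over all promoter peaks it was 30.7% at the summit, 41.6% at 400 bp upstream and 47.5% at 400 bp downstream. The part that base composition plays in these motif shares was not tested.

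CGATA was common in the upstream stretches of the members, with or without a promoter summit in the conservative list. It was present in the 250 bases upstream of a TSS in 8 of the 9 members, all but pds5, and in 8 of their 10 stretches, with 22 matches, against 41.0% of all 19630 promoter stretches. A TATCGATA reads as CGATA on each strand and was counted once for each, as upstream of SA and of the distal wapl TSS. In Mau2, as printed above, the matches ended 122 and 37 bp before the TSS. SMC3 had 5 matches, as did the distal TSS of wapl, and neither gene had a promoter summit in the conservative list. These are matches to letters in the sequence and say nothing on whether any protein was bound there.

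Nipped-B (FBgn0026401, 2R, 4691672 to 4729017, minus strand), the other loader subunit, had no promoter summit and no summit in its gene body in any of the 8 lists. Its nearest conservative summit was 212375 bp from the TSS, and the nearest one in the ranked list of replicate 1 was 15200 bp away. In the conservative list the strongest peak thus stood at Mau2, and Nipped-B was among the 7 members without a promoter summit. Only 18.2% of all protein-coding genes had one there, so such an absence was common.

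Of the ring subunits, SMC1 (FBgn0040283, 3R, 24058287 to 24062815, plus strand) had no promoter summit in any list. The nearest peak of the replicates' lists was at the heat-shock gene Hsp68, and in the thresholded list of replicate 2 its summit lay 982 bp upstream of SMC1 and 5 bp from the Hsp68 TSS, with a signal of 51.7 (rank 5089 of 5484). In the ranked list of replicate 1 the corresponding summit had a signal of 15.4. SMC3 (FBgn0015615, X, 16588996 to 16593439, minus strand) had 2 promoter summits in the ranked list of replicate 2 alone, 86 and 287 bp upstream. Their signals were 28.9 and 25.8, or 1.41 and 1.26 times the list median. The ubiquitin-conjugating enzyme gene Ubc7 starts 238 bp away on the other strand, so the first of these lies between the genes and the second 49 bp inside Ubc7. Their global IDR values were 0.309 and 0.272. The highest value in the conservative list was 0.00999837, but that list was made from both replicates, so these values are not directly comparable.

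The kleisin gene vtd (FBgn0260987, 3L, 27136525 to 27157999, plus strand) had a promoter summit in the ranked list of replicate 1 alone, 126 bp upstream with a signal of 74.7 (rank 5732 of 27371) and a global IDR of 0.0133. The nearest summit of replicate 2 was 129523 bp away. SA (annotated as SA1, FBgn0020616, 2L, 6950421 to 6954586, plus strand) was the strongest member with a summit in 1 replicate alone. In replicate 2 its summit lay 106 bp upstream, with a signal of 179.7, rank 590 of 5484 thresholded peaks, and a global IDR of 7.21e-05 in the ranked list. It lay 108 bp from the TSS of Gas41, a gene for a chromatin reader, on a soft-masked base. In replicate 1 and in the series lists no summit lay within 500 bp of the SA TSS. The nearest ones in the ranked list of replicate 1 and in that of true replicates stood at the neighbouring gene ihog. Their signals were 65.8 and 29.0, and the ranked list of replicate 2 also had a summit there, at 21.8. These summits at ihog lay 1311 to 1434 bp upstream of SA, and the nearest conservative summit was 1513 bp from the SA TSS.

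Of the release and maintenance genes beside pds5, wapl (FBgn0004655, X, 2149936 to 2158983, minus strand, 2 TSSs) had promoter summits in replicate 2 and in the second ranked list of the series. In replicate 2 the strongest lay 3 bp inside the gene with a signal of 59.3 and a global IDR of 0.106, and others lay 219 bp and 199 bp upstream of a TSS with signals of 37.3 and 20.05. In the second ranked list of the series the strongest lay 48 bp upstream with a signal of 109 and a global IDR of 0.324. Replicate 1 had none within 500 bp. The acetyltransferase gene san (FBgn0024188, 2R, 11360706 to 11361871, plus strand) had a summit 231 bp upstream in the ranked list of replicate 1, signal 25.7, and 324 bp upstream in the second ranked list of the series, signal 29.3, between san and the Mediator gene ix. Replicate 2 had none there. Higher signals lay at the next gene, CG12384, with 74.2 in replicate 1 (1482 bp upstream of san) and 46.7 in replicate 2 (1465 bp upstream). The nearest conservative summit was 1520 bp from the san TSS. The member summits nearest the edge of the 500 bp window were that of san at 324 bp inside it and one of wapl at 516 bp outside it, signal 6.87, both in the second ranked list of the series.

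The promoter peaks of SMC3, vtd, wapl and san stood in ranked lists alone. Their signals ran from 0.773 times the list median (san, replicate 1) to 2.95 times (wapl, second ranked list of the series). All of these peaks had exactly the commonest width of their list, 560 bp in the series lists, 610 bp in replicate 1 and 480 bp in replicate 2. Peaks of that one width made up 84.8% of the ranked list of true replicates, 88.3% of the ranked list of replicate 1 and 88.7% of that of replicate 2, but 28.3% of the conservative list. The promoter peaks of Mau2 and SA and the strongest of pds5 had other widths.

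Summits in the gene body outside the promoter windows were few at the members, and most of all protein-coding genes had none either. No member had such a summit in the conservative list, 0 summits over 84.5 kb of gene, against 9.03% of all protein-coding genes and 0.344 summits per 10 kb over all genes. In the ranked list of true replicates 1 member had one, Mau2, 1876 bp after the TSS with a signal of 19.2, against 18.5% of all genes. In the ranked list of replicate 1 no member had one, against 17.5% of genes, and in that of replicate 2 there was 1, wapl, with 3 summits, against 19.7%. Of the wapl signals, 29.0 was above the list median of 20.5, and 9.52 and 8.25 were below it. Length matters for this comparison. Of the 552 genes of 20 to 40 kb, 50.5% had a conservative summit in the body, while both members of that length, Nipped-B at 37.3 kb and vtd at 21.5 kb, had 0.

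Nipped-B and vtd also stood in stretches of the genome with few conservative peaks. Within 500 kb there were 2 conservative peaks around Nipped-B and 0 around vtd, and the other 7 members had 53 to 75. The median over all protein-coding genes was 55, and 123 genes (0.881%) had 2 or fewer. Soft-masked bases made up 30.3% of Nipped-B and 45.7% of vtd, against a median of 8.41% over all genes, of which 1.68% reached 30%. The nearest conservative summit to vtd was 4226412 bp away. Absence of a conservative peak at these genes and absence from the surrounding sequence cannot be told apart with these lists. The part that mapping of reads to repeats plays was not tested.

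**Figure D5:**
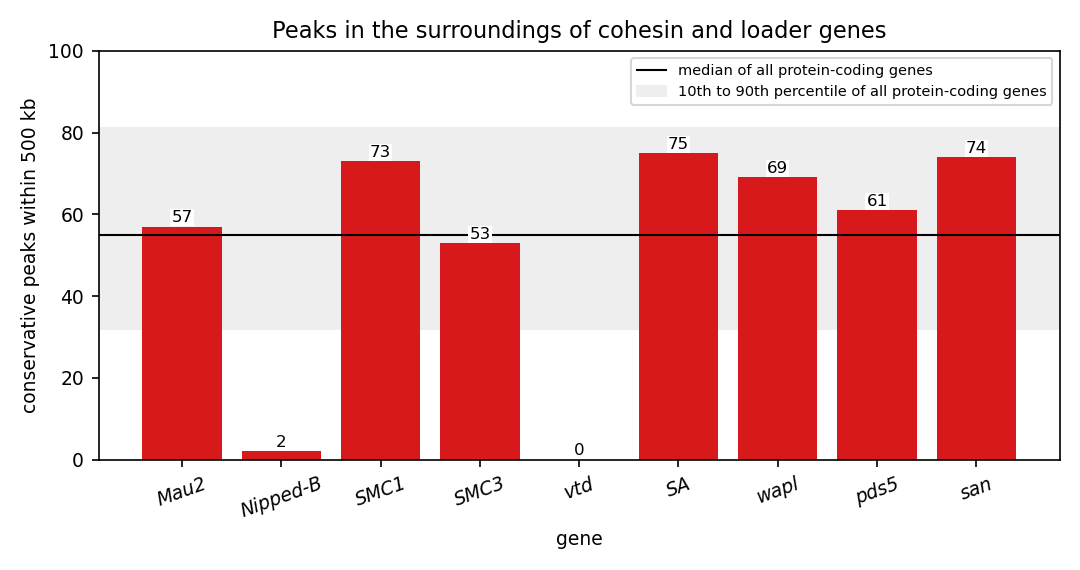
Number of conservative peaks within 500 kb of each member, with the median of all protein-coding genes (55) as a line and the 10th to 90th percentiles (32 to 81) shaded. Nipped-B, with 2, and vtd, with 0, fall below the shaded range, and the other 7 members lie within it.

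Genes of related complexes were listed for context, 26 in all. In the conservative list 4 of them had a promoter summit (15.4%), against 18.2% of all genes. None of 7 genes of cohesin regulation and cleavage had one, 1 of 5 meiotic cohesion genes (solo), 2 of 7 condensin genes (SMC2 and barr) and 1 of 7 genes of the SMC5/6 complex (SMC6). SMC6, an ATPase of the repair complex whose upstream stretch is printed above, had a summit 199 bp upstream with a signal of 443 (rank 423), 237 in replicate 1 and 208 in replicate 2. Its mean of 222 ± 20.7 (SD, n = 2) was like that of pds5, and it too shares its summit with a gene on the other strand, CG6204. SMC2, an ATPase of condensin, had 325 (rank 1101), with a mean of 159 ± 26.8 (SD, n = 2), and shares its summit with the repair gene Ercc1. The kleisin gene barr had summits of 202 and 145, shared with the checkpoint kinase gene lok, and a thresholded promoter summit in replicate 1 alone. solo had 170.1, with a thresholded promoter summit in replicate 2 alone (57.3), and begins at the same TSS as vas.

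All of the genes of this family with a conservative promoter summit shared it with the TSS window of another coding gene, 2 of 2 members and 4 of 4 related genes. Over all genes with a conservative promoter summit, 1364 of 2541 did so (53.7%). The counts in the family are too small to set against that share.

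The genes whose strongest promoter summit was most like that of Mau2, by the distance between percentile ranks over 4 lists and leaving out genes that share the peak, were oxt and CG13807, which have 1 peak in common (0.0187 percentile points), and CG18476 (0.0368). For pds5 they were CG9743 (0.233), SLC5A11 (0.328) and Regnase-1 (0.448). Likeness here means similar ranks in the same lists and nothing more.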

How the data were processed

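ChIP-seq for CG31441-eGFP was analysed in 2 replicates of 1 group, grouped by the labels. They are separate biosamples, and spread between them may be technical as well as biological. The 8 deposited peak lists are on dm6. Per the readme deposited with each sample, 4 lists were made from both replicates and 1 further input and 2 lists from each replicate. Aligner and peak caller were not given in the sources used here. Signal is the value the authors deposited for each peak, on a scale that is not stated, so ranks and multiples of the list median are given beside it. The score is the authors' deposited −log10 global IDR. Each summit is the deposited offset from the start of the peak. A further 16 columns of single inputs, in the ranked lists made from both replicates, were left unused. Read depth is unknown, so no interval is given.

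Summits were set against 19630 TSSs of protein-coding genes in Ensembl release 115 (BDGP 6.54), with sequence from the RefSeq genome of dm6. A gene body excluded the promoter windows. SA and SA-2 were matched through RefSeq synonyms to SA1 and SA2. The members and lists were chosen with earlier results of these data known, and no test was made. The genes named are the members, genes that share their promoter summits, related genes with a conservative promoter summit, the 3 genes nearest in rank to each bound member, and the neighbours at which the nearest summit stood, which were added after the values were seen. Alternatives were other lists, windows, TSS sets and the omission of masked summits. Counting was tested on simulated data. Tables were handled with pandas 2.3.3 and numpy 2.4.6 under Python 3.11.15, and plots were drawn with matplotlib 3.10.9.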

Additional observations from a re-analysis of the deposited data

How the results depend on the processing

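The count of members with a promoter summit, 2, stayed within 1.5 times under 9 of 12 alternatives. It was 1 with masked summits left out, since the pds5 summit falls on a masked base, 4 in the ranked list of replicate 1 and 5 in that of replicate 2. With 1 replicate left out it was 2 to 3. The count of members with a summit in the gene body was 0 under all 9 alternatives run on thresholded lists, and 1 in the ranked lists of true replicates and of replicate 2. The background of 18.2% of genes moved to 21.0% in the less strict list, 12.1% in the conservative peaks with a signal above the list median, 14.0% with a window of 250 bp, 21.3% with 1000 bp, 19.4% when any overlap of the peak counted, 16.0% with the outermost 5′ end alone and 13.7% without masked summits. With 1 replicate left out it was 17.3% to 18.4%. The share of peaks with a higher signal than that of Mau2 was 0% in the conservative list and 0% to 0.0201% with 1 replicate left out, the upper value being replicate 1 alone. Motif matches at member summits numbered 3 within 50 bp and 4 within 100 bp. With promoter windows kept, gene bodies held 0.111 summits per 10 kb. No paired analysis was possible because the replicates belong to 1 group. Without read depth, a missing summit cannot be told apart from one below the reach of a list.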

Other observations

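Cap-H2, a kleisin of condensin II, and c(2)M, a kleisin-like protein of the synaptonemal complex, had a thresholded promoter summit in both replicates and none in the conservative list or in the ranked list of true replicates. The signal at Cap-H2 was 229 in replicate 1 and 127 in replicate 2, and that at c(2)M was 149.7 in replicate 1 and 102 in replicate 2. Over all protein-coding genes, 55 of the 1815 genes with a thresholded promoter summit in both replicates (3.03%) had none in that ranked list.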
